A study of Homo sapiens with 4 samples.

Results

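Small structural RNAs made by RNA polymerase III were followed through a miRNA pull out experiment in DU-145, a cell line derived from a human prostate carcinoma. The 10 genes examined were RN7SK, RN7SL1, RN7SL2, RMRP, RPPH1, VTRNA1-1, VTRNA1-2, VTRNA1-3, RNY1 and RNY3, out of 24763 gene symbols and 53209 transcript records in the deposited tables. They were chosen by family and because several of them had very high values in these libraries, so their levels are a description, and although 5 of them were in the fit over all transcripts, no p is given for them. All 10 were listed in each of the 4 libraries.

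DU-145 cells were transfected with 60 nM of miR-28-5p. In the miR-28CT samples (2 libraries) the duplex carried no tag. In the miR-28BIO samples (2 libraries) it was a mix of duplexes with biotin at the 3′ end and a thiouridine at nucleotide 8 or 18. Cells of both arms were exposed to ultraviolet light of 365 nm at 2 J/cm2, and 15 μg of RNA was held with streptavidin beads for 4 h. The RNA left on the beads was sequenced as stranded total RNA in reads of 50 bases. The comparison asks which RNAs were recovered with tagged miR-28-5p beyond the background of the beads. Both arms received additional miR-28-5p, so neither shows cells with their own miR-28-5p alone, and DU-145 is 1 line. The series' design text counts 3 control samples, while the labels analysed here give 2.

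RNA polymerase III makes short RNAs that are not translated. 7SK RNA (RN7SK) holds the elongation factor P-TEFb in an inactive complex, and 7SL RNA (RN7SL1, RN7SL2) is the scaffold of the signal recognition particle, which brings ribosomes to the endoplasmic reticulum. RMRP and RPPH1 are the RNAs of the ribonucleases MRP and P, which process ribosomal and transfer RNA precursors. Vault RNAs (VTRNA1-1, VTRNA1-2, VTRNA1-3) are found in part in the vault particle, and Y RNAs (RNY1, RNY3) bind the Ro protein RO60 and the La protein SSB. They are abundant in most human cells.

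The values are FPKM, fragments per kilobase of transcript relative to the depth of the library, as estimated by Cufflinks. Where 4 values follow each other, they stand for miR-28CT replicate 1, miR-28CT replicate 2, miR-28BIO replicate 1 and miR-28BIO replicate 2. From the ratio of coverage to FPKM, the totals behind them were 17.9, 13.0, 17.3 and 14.7 M reads. Where arms were compared, FPKM were divided by median-of-ratios factors and are called scaled FPKM. For a member, the log2 difference between arms is the log2 ratio of its arm means of scaled FPKM. Of the epithelial markers, KRT8 was listed at 16.0, 17.0, 7.21 and 11.6 FPKM, and EPCAM at 5.26, 3.83, 3.41 and 4.19 FPKM. CDH1 lay between 0.907 and 1.77 FPKM, and the higher of 2 transcripts of KRT18 was listed at 0 in both libraries numbered 1 and at 83.7 and 37.4 FPKM in those numbered 2. KLK3, PTPRC and PECAM1 were listed at 0 in all 4 libraries, and COL1A1 did not exceed 0.178 FPKM. Of the 4 epithelial markers, KRT8, EPCAM and CDH1 were thus above 0 in every library and this record of KRT18 in 2. PUF60, a gene of general use, was also listed at 0 throughout, with status OK. Whether such an entry stands for absent RNA or for a failed estimate was not tested.

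RN7SK lies on chr6:52995620-52995951 of hg38, on the plus strand, and is 332 bases long. It had 42955 and 197925 FPKM in the miR-28CT libraries and 6515 and 18029 FPKM in the miR-28BIO libraries, replicate 1 before replicate 2. Both miR-28BIO values lay below both miR-28CT values, and within each arm replicate 2 was higher. On scaled FPKM replicate 2 was 5.77 times replicate 1 in miR-28CT and 2.69 times in miR-28BIO, but from the midpoints of the Cufflinks intervals these factors were 1.80 and 1.000. On scaled FPKM the mean was 136551 ± 136053 (SD, n = 2) for miR-28CT and 11374 ± 7359 (SD, n = 2) for miR-28BIO, a log2 difference of -3.59. Without miR-28CT replicate 2 this difference was -1.83, and without miR-28BIO replicate 2 it was -4.47. Its coverage times length came to 12.8, 42.6, 1.87 and 4.37 M bases in the order given above, and its status was OK in every library. RN7SK held the highest FPKM of all transcripts in both libraries numbered 1, and ranked 3 and 4 among those with an estimate in the libraries numbered 2. It also has near copies elsewhere in the genome: of its 283 windows of 50 bases, the length of a read, 67 occur at 1 place in hg38 and the others at up to 5.

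RN7SL1 and RN7SL2 are near-identical copies of 299 bases on chromosome 14, and reads of the pair are hard to assign. RN7SL1 lies on the plus strand and RN7SL2 on the minus strand. They differ at 4 bases, which leaves 98.7% of positions identical. Of the 250 windows of 50 bases in RN7SL1, 158 (63.2%) also occur in RN7SL2. A related gene, RN7SL3, shares 86 windows (34.4%) with RN7SL1 and 76 (30.4%) with RN7SL2. It could not be matched to a record of the tables, so where its reads were counted is not known. Only 39 windows of RN7SL1 and 32 of RN7SL2 have 1 place in the genome, and windows of RN7SL2 have up to 20.

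RN7SL2 reached 16328 and 400091 FPKM with the untagged duplex and 3910.5 and 58275 FPKM with the tagged ones. The arms overlapped, because each replicate 2 lay far above its replicate 1. The means of scaled FPKM were 242917 ± 321848 (SD, n = 2) for miR-28CT and 28644 ± 35270.3 (SD, n = 2) for miR-28BIO, a log2 difference of -3.08 between these means. The pooled replicate SD of the log2 values, a different scale, was 3.13. Within replicate numbers 1 and 2 the log2 differences were -2.05 and -3.13. Without miR-28CT replicate 2 the log2 difference of the means turned positive, to 0.90, and without miR-28BIO replicate 2 it was -6.04. In miR-28CT replicate 2 RN7SL2 was the highest of all transcripts with an estimate, with 33.2% of the summed FPKM and 77.3 M bases of coverage times length. The same product was 4.39 M bases in the other miR-28CT library, and 1.02 and 12.7 M bases in the miR-28BIO libraries.

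RN7SL1 had 2586 FPKM in miR-28CT replicate 1, 538 in miR-28BIO replicate 1 and 101751 in miR-28BIO replicate 2. In the last of these it held the highest FPKM of all transcripts with an estimate. In miR-28CT replicate 2 it carried the status HIDATA, which Cufflinks gives to a locus with too many fragments to estimate, and its FPKM and coverage were listed at 0. That entry is a missing value at a crowded locus and not a low level, so RN7SL1 was left out of the comparison of arms. Without that library its log2 difference was 4.28, although within replicate number 1 it was lower in miR-28BIO. Its coverage times length was 0.696, 0.140 and 22.2 M bases in the libraries with an estimate. The ratio of RN7SL1 to RN7SL2 in FPKM was 0.158 in miR-28CT replicate 1 and 0.138 in miR-28BIO replicate 1, but 1.75 in miR-28BIO replicate 2, or 1.02 there from the midpoints of the Cufflinks intervals. How far these ratios reflect the assignment of shared reads was not tested. Added together, the pair reached 18914 FPKM in miR-28CT replicate 1, 4448 in miR-28BIO replicate 1 and 160026 in miR-28BIO replicate 2. The last sum was 0.400 of the value of RN7SL2 alone in miR-28CT replicate 2.

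HIDATA was rare. It was given to 12 transcripts in miR-28CT replicate 2, to 25 in miR-28BIO replicate 2 and to 0 in both libraries numbered 1. RN7SL1 was the only member with this status, and the other named transcripts belonged to ribosomal RNA genes and to MIR3648-1, MIR663A and LOC100507412.

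RMRP, the RNA of ribonuclease MRP, is 268 bases long and lies on chr9:35657751-35658018, on the minus strand. It had 10544 and 248537 FPKM in the miR-28CT libraries and 2159 and 58411 FPKM in the miR-28BIO libraries. As for RN7SL2, the arms overlapped and the replicates numbered 2 stood above those numbered 1, by 29.5-fold in miR-28CT and 26.3-fold in miR-28BIO on scaled FPKM, and by 7.55-fold and 6.49-fold on scaled interval midpoints. The means were 151088 ± 199666 (SD, n = 2) and 27877 ± 36532 (SD, n = 2) scaled FPKM, a log2 difference of -2.44, which became 1.49 without miR-28CT replicate 2 and -6.21 without miR-28BIO replicate 2. Coverage times length was 2.52, 43.4, 0.499 and 11.5 M bases, with status OK in each library. All 219 windows of 50 bases of RMRP have 1 place in the genome.

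RPPH1, the RNA of ribonuclease P, is 341 bases long and lies on chr14:20343071-20343411, on the minus strand. It had 15073 and 98926 FPKM in the miR-28CT libraries and 1583 and 7774 FPKM in the miR-28BIO libraries. Both miR-28BIO values lay below both miR-28CT values, by 1.98-fold between the nearest pair on scaled FPKM. The means were 65246 ± 72251 (SD, n = 2) and 4324 ± 3994 (SD, n = 2) scaled FPKM, a log2 difference of -3.92. Without miR-28CT replicate 2 it was -1.71, and without miR-28BIO replicate 2 it was -5.44. Coverage times length was 4.63, 22.1, 0.471 and 1.96 M bases, the status was OK throughout, and all 292 windows of RPPH1 have 1 place in the genome.

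**Figure D1:**
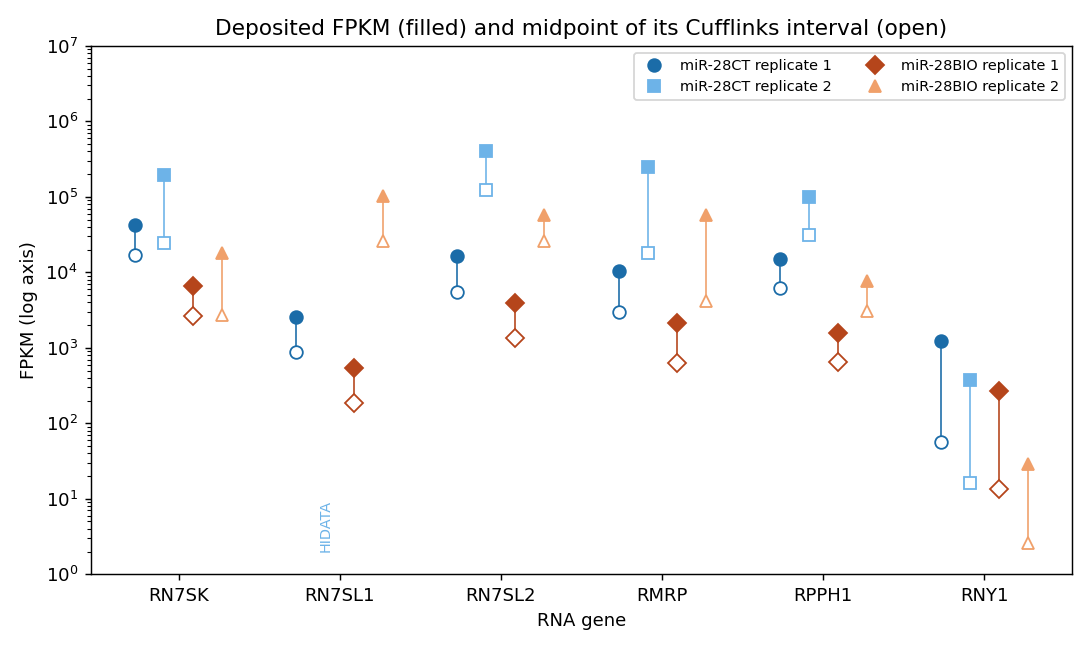
FPKM of 6 structural RNAs in each library on a log axis, with the deposited value filled and the midpoint of its Cufflinks interval open; lines join the 2. RN7SK, RPPH1 and RNY1 are lower in both miR-28BIO libraries than in both miR-28CT libraries, while RN7SL2 and RMRP overlap and RN7SL1 has no estimate in miR-28CT replicate 2.

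Of the small Y RNAs, RNY1 had values and RNY3 was listed at 0. Both lie on chromosome 7, RNY1 on the minus strand (113 bases) and RNY3 on the plus strand (102 bases). RNY1 had 1226 and 369 FPKM in the miR-28CT libraries and 266 and 28.8 FPKM in the miR-28BIO libraries. Both miR-28BIO values lay below both miR-28CT values, and here each replicate 1 was the higher of its arm, opposite to the longer members. Other tested transcripts of at most 150 bases also went the other way in the median. Their median log2 difference of replicate 2 from replicate 1 was 1.59 in miR-28CT and 3.45 in miR-28BIO. For RNY1 these differences were -1.41 and -3.24. The means were 793 ± 508 (SD, n = 2) and 139 ± 159 (SD, n = 2) scaled FPKM, a log2 difference of -2.51, which became -4.91 without miR-28BIO replicate 1, -1.64 without miR-28CT replicate 1 and -1.66 without miR-28BIO replicate 2. The depth behind RNY1 was low: coverage times length was 0.121 M bases in miR-28CT replicate 1 and 0.0268, 0.0256 and 0.00238 M bases in the libraries that followed. In miR-28BIO replicate 2 its Cufflinks interval ran from 0 to 5.24 FPKM. Of its 64 windows, 48 have 1 place in the genome, whereas 0 of the 53 windows of RNY3 do.

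The vault RNAs VTRNA1-1 (chr5:140711276-140711373), VTRNA1-2 (chr5:140718926-140719013) and VTRNA1-3 (chr5:140726159-140726246) lie on the plus strand of chromosome 5 and are 98, 88 and 88 bases long. All 3 were listed at 0 FPKM and 0 coverage with status OK in all 4 libraries. Their sequences are shown because they match GTTCGANNC, a form of the internal promoter element box B, which was not found in the other members. Looser forms of box B were not searched. The match is marked in capitals on the RNA strand:
VTRNA1-1: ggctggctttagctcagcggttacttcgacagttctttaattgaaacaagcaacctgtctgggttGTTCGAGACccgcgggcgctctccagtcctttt
VTRNA1-2: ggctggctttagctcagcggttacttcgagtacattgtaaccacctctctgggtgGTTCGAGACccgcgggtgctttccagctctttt
VTRNA1-3: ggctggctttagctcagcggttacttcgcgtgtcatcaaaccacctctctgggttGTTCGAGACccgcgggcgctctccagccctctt
This motif was found in 3 of the 10 members and in 0.489% of 10018 GENCODE transcripts that span 80 to 350 bases. A run of TTTT, the usual stop signal of RNA polymerase III, lay in the last 4 bases or the next 20 of 9 of the 10 members, all but VTRNA1-3, against 20.8% of the same transcripts. The members were chosen as RNA polymerase III genes, and the 3 vault RNAs are related, with the same first 28 bases. Nothing is therefore read from either difference in share. All windows of the 3 vault RNAs have 1 place in the genome.

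Zero entries were common at every length and most frequent among the shortest RNAs. Of 2621 transcripts of at most 150 bases, 2184 (83.3%) were listed at 0 with status OK in all 4 libraries, and so were 175 of 233 (75.1%) above 150 and up to 350 bases. The share was 70.4% above 350 and up to 1000 bases, 55.7% above 1000 and up to 3000 bases and 40.5% above 3000 bases. Among structural RNAs outside the members, RNY4, VTRNA2-1, BCYRN1 and RNU6ATAC were listed at 0 in every library, and RNY5 had 403 FPKM in miR-28CT replicate 2 and 0 in the rest. Whether VTRNA1-1, VTRNA1-2, VTRNA1-3 and RNY3 were absent from the beads or lost in the library or in the estimate cannot be told apart here.

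The FPKM of the 6 members with values stood far outside their own Cufflinks intervals. RN7SK in miR-28CT replicate 1 had 42955 FPKM, but bounds of 16914 and 17174 with a midpoint of 17044 FPKM, so the value was 2.52 times the midpoint. The same factor was 8.06 in miR-28CT replicate 2, 2.48 in miR-28BIO replicate 1 and 6.66 in miR-28BIO replicate 2. RMRP showed the same split, with factors of 3.50, 13.7, 3.45 and 14.0, while RPPH1 stayed between 2.42 and 3.20. For RNY1 the factor was between 11.0 and 22.9. The level of a member thus depended on which of these deposited values was read, for RN7SK and RMRP most in the libraries numbered 2. The factor was higher in shorter transcripts. Its median over transcripts of at most 150 bases was 12.5, 21.3, 13.3 and 21.9 in the 4 libraries, and it was 2.89, 3.33, 2.87 and 2.55 for those above 150 and up to 350 bases. It lay between 0.998 and 1.000 above 1000 bases. RMRP in the libraries numbered 2 stood above the 90th percentile of its length class (11.2 and 11.4). Since coverage over FPKM was nearly the same for the members of a library (between 0.871 for RNY1 and 0.902 for RPPH1 in miR-28CT replicate 1), coverage times length carries the same factor.

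**Figure D2:**
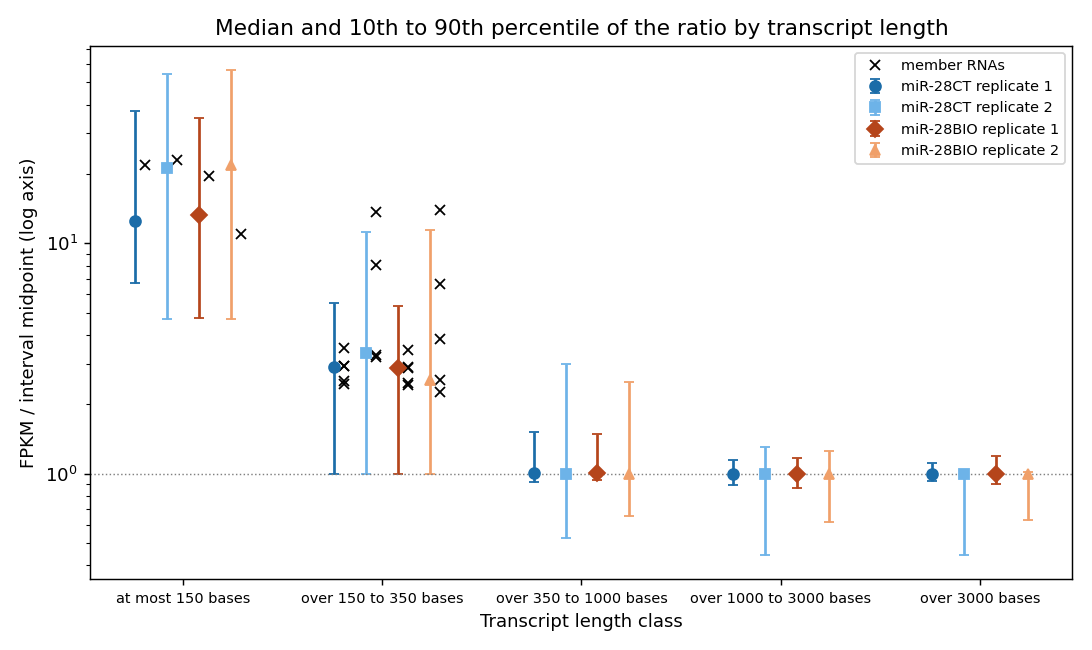
Ratio of the deposited FPKM to the midpoint of its Cufflinks interval by transcript length class, on a log axis, as the median with the 10th to 90th percentile in each library; crosses are the member RNAs. The median ratio is near 1 above 350 bases, with a wider range in the libraries numbered 2, and RMRP reaches 13.7 and 14.0 in the libraries numbered 2.

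The share of the listed totals that the members held differed widely between libraries. These totals lack the HIDATA entries of the libraries numbered 2, among them RN7SL1 in miR-28CT replicate 2. The members summed to 88712, 945848, 14970 and 244269 FPKM, which was 38.6%, 78.5%, 11.5% and 54.2% of all listed FPKM. Weighted by length, as coverage times length, they held 8.49%, 49.9%, 1.47% and 18.3% of the listed total. From interval midpoints the shares weighted by length were 3.55%, 17.0%, 0.589% and 5.47%, and those without weighting were 22.7%, 56.2%, 5.44% and 32.3%. On each scale the order of the libraries was the same, with miR-28CT replicate 2 first and miR-28BIO replicate 1 last. Of the 5 highest FPKM in a library, members held 4, 4, 4 and 5, and of the 5 highest midpoints they held 4, 4, 3 and 4. The highest transcript outside them was SNORD102 in both libraries numbered 1 (3692 and 2511 FPKM), SNORA73A in miR-28CT replicate 2 (10481 FPKM) and MIR3654 in miR-28BIO replicate 2 (5327 FPKM). By midpoint it was RPL38 in miR-28CT replicate 1 (1238 FPKM), NOP10 in miR-28BIO replicate 1 (1068 FPKM) and RPS29 in both libraries numbered 2 (8083 and 3286 FPKM).

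**Figure D3:**
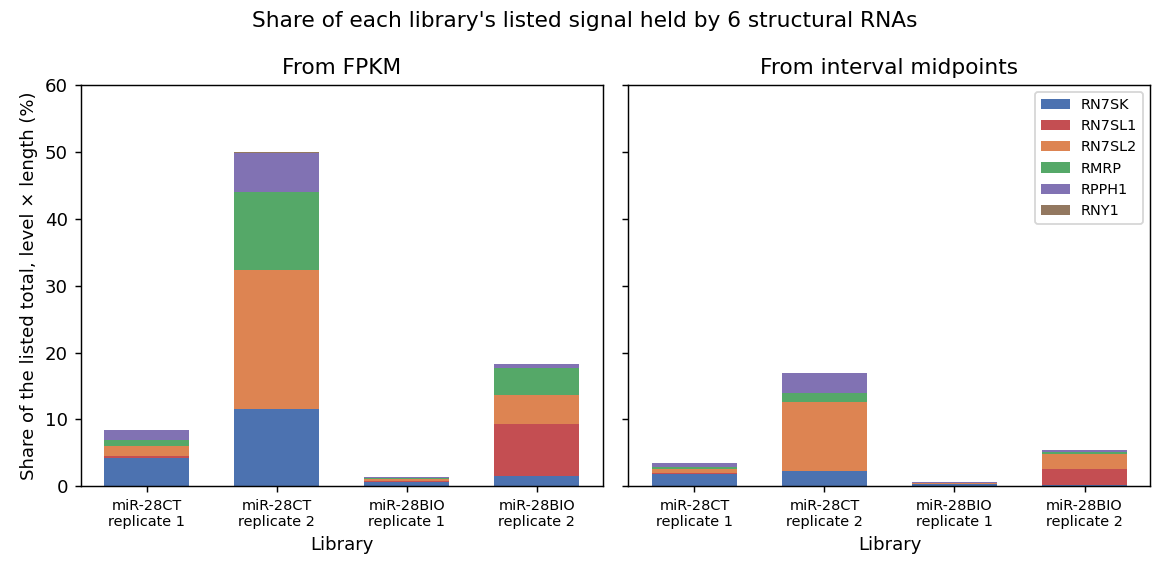
Share of each library's listed total, as level times length in percent, held by 6 structural RNAs, from FPKM on the left and from interval midpoints on the right. RN7SL2 is the tallest part in miR-28CT replicate 2 (20.9% from FPKM and 10.3% from midpoints), and RN7SL1 has no estimate there. Of the libraries with an estimate, RN7SL1 has its largest part in miR-28BIO replicate 2.

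Among the members the order of levels changed between libraries. By FPKM, RN7SK led RN7SL2 in both libraries numbered 1, with RN7SL2 at 0.380 and 0.600 of RN7SK, and RN7SL2 led RN7SK in those numbered 2, at 2.02 and 3.23 times its value (4.99 and 9.54 times from midpoints). The ratio of RMRP to RPPH1 was 0.700, 2.51, 1.36 and 7.51 by FPKM, and 0.489, 0.588, 0.958 and 1.37 from midpoints, so RMRP led in 3 libraries on the first scale and in 1 on the second. RNY1 was the lowest of the members with values in every library.

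Compared between arms, 3 of the 5 members with status OK and a value above 0 in all 4 libraries (RN7SK, RPPH1 and RNY1) had both miR-28BIO values below both miR-28CT values. The same held for 12.0% of the 15587 transcripts tested, and since the members were selected on these libraries, nothing is read from the difference. From interval midpoints the same 3 members were separated, against 16.9% of 15747 transcripts. The intervals themselves overlapped between arms for RNY1 (8.55 to 23.7 FPKM in miR-28CT replicate 2 and 7.40 to 19.7 FPKM in miR-28BIO replicate 1) and lay apart for RN7SK and RPPH1. Within replicate number 1, scaled FPKM of RN7SK, RN7SL1, RN7SL2, RMRP, RPPH1 and RNY1 were 6.54, 4.77, 4.14, 4.84, 9.44 and 4.58 times higher in miR-28CT than in miR-28BIO. Within number 2 the factors for RN7SK, RN7SL2, RMRP, RPPH1 and RNY1 were 14.0, 8.78, 5.44, 16.3 and 16.4. All 5 members with complete values were thus lower in miR-28BIO within both numbers, as were 30.5% of the tested transcripts. From midpoints the factors of number 2 were 11.6, 6.07, 5.55, 13.0 and 7.86, with the same direction for each of these members.

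**Figure D4:**
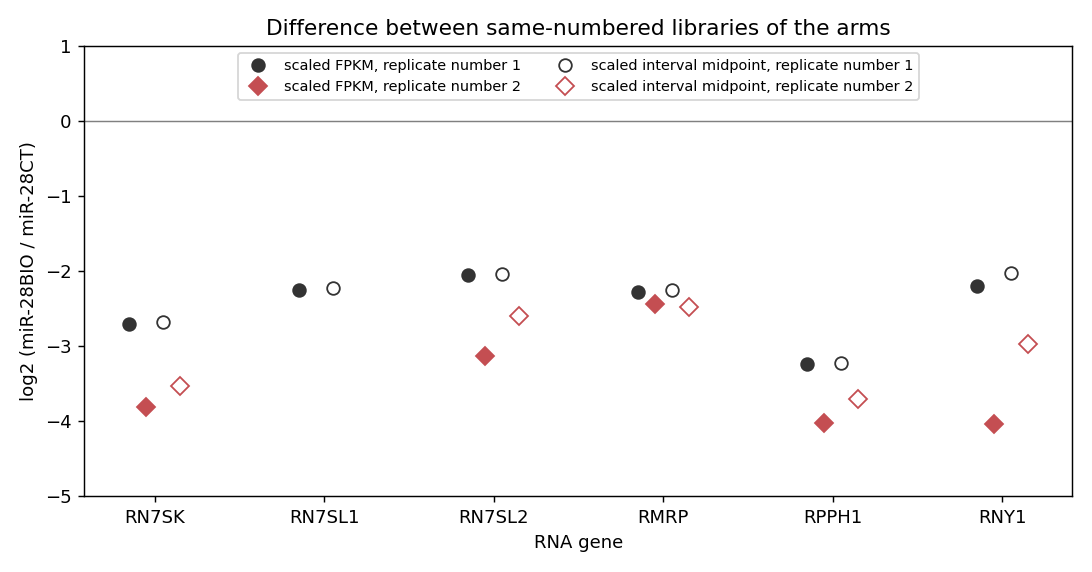
Log2 of miR-28BIO over miR-28CT between libraries of the same replicate number for 6 structural RNAs, from scaled FPKM (filled) and scaled interval midpoints (open). All points lie below 0, and RN7SL1 has no point for number 2 because of its HIDATA status.

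The same direction was common outside the members. Among the 33 other tested transcripts above 150 and up to 350 bases, 11 (33.3%) had both miR-28BIO values below both miR-28CT values, 17 (51.5%) were lower within both numbers, and the median log2 difference was -1.74. Among 1077 above 350 and up to 1000 bases these shares were 22.9% and 55.1% with a median of -0.77, and among 14188 above 1000 bases they were 11.2% and 28.8% with a median of -0.04. In the class of RNY1, at most 150 bases, they were 7.39% and 15.5% of 284 with a median of -0.37. A shift toward miR-28CT was thus shared by other transcripts of the length of RN7SK, RN7SL2, RMRP and RPPH1, and the part of length in the values of the members was not tested. On scaled FPKM, replicate 2 of miR-28CT exceeded replicate 1 by a median of 1.18 on the log2 scale above 150 and up to 350 bases. The same difference was 2.53 for RN7SK, 3.04 for RPPH1, 4.94 for RN7SL2 and 4.88 for RMRP. From scaled midpoints the members differed by 1.80-fold, 6.28-fold, 27.7-fold and 7.55-fold in this order, and no class median is given on that scale.

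RN7SL2 had the highest mean scaled FPKM of the members with complete values. Over the 4 libraries, the 5 transcripts of at least 10 mean scaled FPKM with the most similar profile were those of H2AC13, RPS21, SNORA73A, H4C12 and SCARNA2, at Euclidean distances of 0.430, 0.499, 0.504, 0.569 and 0.596 between centred log2 values. H2AC13, a histone gene, had 114, 2017, 27.8 and 418 FPKM, and RPS21, a ribosomal protein gene, had 91.0, 2223, 25.6 and 495 FPKM. All 5 were at most 500 bases long, as were 13.7% of the 2564 candidates. RMRP ranked 7 by this distance (0.652), while RPPH1 (2.04), RN7SK (2.51) and RNY1 (6.75) were farther from RN7SL2.

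The proteins that bind these RNAs, and the machinery that transcribes them, were examined through their mRNAs in 7 lists of 62 genes. With limma on log2(scaled FPKM + 0.1), 59 were tested, and 0 differed between arms at a Benjamini-Hochberg adjusted p of 0.05 (0 at an unadjusted p under 0.05). Over all 15587 transcripts limma called 0 (0%), with 325 higher and 232 lower in miR-28BIO at an unadjusted p under 0.05. Separated arms were seen for 5 of the 59 in the higher direction (8.47%, against 11.5% of all tested) and for 10 in the lower (16.9%, against 12.0%). These counts depended on the measure. From midpoints they were 5 and 16, with 16.9% of 15747 transcripts lower on that scale, and with Cufflinks intervals apart they were 0 and 5. The median log2 difference was -0.20, beside -0.08 over all tested transcripts.

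The arms overlapped for all 7 genes of the 7SK complex, as they did for 76.4% of the 15587 tested transcripts. HEXIM1, which inhibits P-TEFb when bound to 7SK, had 5.23, 2.78, 4.70 and 3.23 FPKM, and the 7SK-binding protein LARP7 had 5.01, 0.573, 3.72 and 0.739 FPKM. CDK9, the kinase of P-TEFb, lay between 4.56 and 8.22 FPKM.

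Of the 8 genes of the signal recognition particle and its receptor, SRP9 and SRP68 were lower and SRP72 and SRPRB higher in both miR-28BIO libraries, as were 12.0% (lower) and 11.5% (higher) of all tested transcripts. SRP9, which binds the Alu domain of 7SL RNA with SRP14, had 17.4, 20.2, 7.51 and 10.3 FPKM (limma log2 difference -1.26 ± 0.48 SE). SRPRB, a subunit of the receptor, had 2.85, 4.02, 7.95 and 9.74 FPKM (1.18 ± 0.54 SE). Both had a limma adjusted p of 1.00. Among 10 tested proteins of ribonucleases P and MRP, POP1 was separated upward and POP5 and RPP25 downward on scaled FPKM. POP5 had 7.91, 5.14, 6.02 and 4.70 FPKM, so its arms overlapped before scaling. RPP21 was listed at 0 and was not tested.

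Of the vault proteins, MVP, the main protein of the particle, had 2.72, 4.80, 2.16 and 2.82 FPKM, and TEP1 and PARP4 also overlapped between arms. SSB, which binds the terminal uridines of new RNA polymerase III transcripts, had 24.8, 4.72, 23.0 and 6.74 FPKM, high in both libraries numbered 1. RNY1 was also higher in number 1 within each arm, but so were partner transcripts of other lists, such as LARP7 and SRP14. MEPCE and RPP25L were higher in number 2. The highest of 3 tested transcripts of RO60, the Ro protein, had 9.83, 1.97, 0 and 6.85 FPKM. Its 0 is that of 1 of 5 records and not of the gene. PUF60, which binds the Ro particle, was at 0 throughout, as were the vault RNAs and RNY3.

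In the transcription machinery, POLR3F, POLR1C and POLR1D of the 13 polymerase subunits were lower in both miR-28BIO libraries, and POLR3C had the highest mean. Of the 16 tested factors, BRF2, GTF3C5 and MAF1 were lower and TBP and SNAPC3 higher, and GTF3A had the highest mean with MAF1 next. Thus 23.1% of the subunits and 18.8% of the factors were lower and 0% and 12.5% higher, beside 12.0% and 11.5% of all tested transcripts. MAF1, a repressor of RNA polymerase III, had 20.7, 12.0, 10.7 and 6.49 FPKM (limma log2 difference -1.08 ± 0.52 SE, adjusted p of 1.00). BDP1 did not reach the minimum level.

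**Figure D5:**
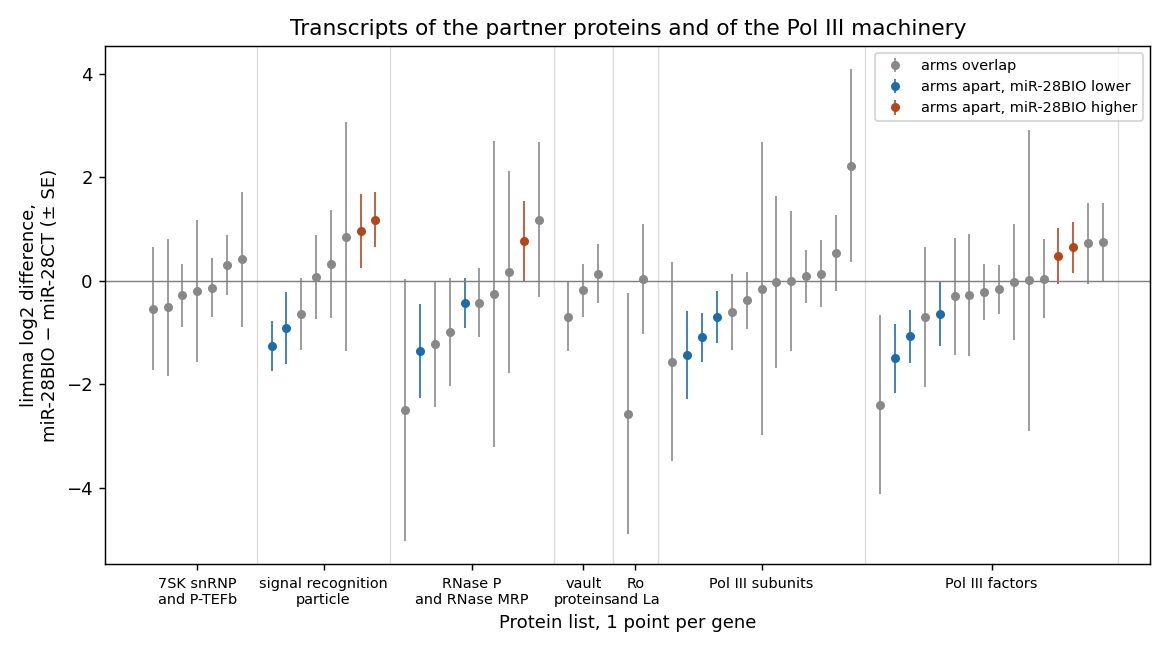
Limma log2 difference, miR-28BIO minus miR-28CT, with its SE, for 59 transcripts of the 7 protein lists, 1 point per gene. Blue and red points mark the 10 and 5 transcripts whose arms do not overlap. Blue points lie below 0 and red points above it, and both colours occur in the signal recognition particle, ribonuclease and Pol III factor lists.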

How the data were processed

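RNA from the miRNA pull out assay in DU-145 was sequenced in 4 libraries, 2 miR-28CT and 2 miR-28BIO samples, which the study describes as biological replicates. The submitters' processing notes name FastQC 0.10.1, cutadapt, TopHat2 2.0.9, Cufflinks 2.1.1, Cuffdiff and hg38. The options of TopHat2 for reads with several places are not given in the sources used here. The authors deposited FPKM for 53209 RefSeq records per library, with a status and the bounds of each Cufflinks interval. The deposited coverage, a signal of mean read depth, was multiplied by length for each transcript, and its median ratio to FPKM, at 50 bases per read, gave the depth of each library.

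Symbols came from the RefSeq table of GRCh38.p14. Records with status OK in all 4 libraries (52530) were scaled by median-of-ratios factors of 1.06, 0.850, 1.06 and 1.09. The 15587 with a mean of at least 0.5 scaled FPKM were fitted on log2(scaled FPKM + 0.1) with lmFit and eBayes of limma 3.58.1, with trend and no block, followed by Benjamini-Hochberg adjustment of p. Fold changes on this scale understate those of low transcripts. The paper's Cuffdiff test needs alignments and was not repeated. For each partner gene the tested transcript with the highest mean was used. Named genes were all members, the partner genes of the 7SK, signal recognition particle, ribonuclease, vault and Ro lists, the factors and subunits with separated arms or the highest means, other small structural RNAs with RN7SL3, and the 5 nearest profiles. SNORD102, MIR3654, RPL38, NOP10, RPS29 and PUF60 as a zero entry were named after their values were seen. Members and lists were chosen with earlier results of these data known. Sequences were read from hg38 with strands of GENCODE 44, and windows were matched exactly on both strands of chromosomes 1 to 22, X, Y and the mitochondrial genome. Some sequences and 1 marker gene are not reported here. The fit was tested on simulated data. Python 3.11.15, numpy 2.4.6, pandas 2.3.3, matplotlib 3.10.9 and R 4.3.3 were used. Alternatives were other scalings, filters, pseudocounts, sums per gene name, no trend, any status, a replicate block, intervals in place of estimates, coverage times length and leaving out each library.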

Additional observations from a re-analysis of the deposited data

How the results depend on the processing

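Limma called 0 higher and 0 lower transcripts under other scalings, filters and pseudocounts, without a trend, with any status, with each library left out (0 in either direction, the lone library of an arm being assumed to vary like the others) and from interval midpoints, an alternative chosen after seeing the data. Sums per gene name gave 0 higher and 3 lower. With the replicate number as a block (replicate block) the counts were again 0 and 0, with 760 higher and 1112 lower at an unadjusted p under 0.05. These were 7 of the 59 partner transcripts, beside 1872 of all 15587, a similar share. Sums with the replicate block, also chosen after seeing the data, gave 42 and 22. The labels do not say that a number marks a shared batch. Same-numbered libraries deviated together from their arm means (Spearman rho = 0.529 and Pearson r = 0.422 over 15587 transcripts, not independent replicates).

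Partner transcripts with separated arms numbered 5 higher and 10 lower, and 0 and 5 when Cufflinks intervals had to lie apart. From midpoints 16 of the 59 were lower, beside 16.9% of 15747 transcripts. With 1 library left out the partner transcripts with separated arms ranged from 10 to 19 higher and from 18 to 28 lower, since fewer values had to be apart. For intervals apart and for 1 library left out no share over all transcripts is given, so nothing is read from those counts. The separated members were 3, and 3 to 5 with 1 library left out. The log2 difference of RN7SL2 ranged from -6.04 to 0.90 and that of RMRP from -6.21 to 1.49 with 1 library left out, and both were positive only without miR-28CT replicate 2. That setting compares miR-28CT replicate 1 with the mean of both miR-28BIO libraries. Within replicate numbers 1 and 2 the differences were negative, at -2.05 and -3.13 for RN7SL2 and -2.28 and -2.44 for RMRP. The cause of the gap between replicates was not tested. RN7SK, RPPH1 and RNY1 stayed negative under every alternative run. Read as deposited, with the HIDATA entry as 0, RN7SL1 would give 5.28, and without that library 4.28. Leaving FPKM unscaled moved the median log2 difference of all tested transcripts by 0.15. Counts of reads per transcript were not among the values used, so depth was read only from coverage times length. In addition, 2 libraries per arm limit every comparison.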
